A study of Mus musculus with 16 samples.

Results

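The transcript levels of liver and kidney were compared in short-read RNA-Seq libraries of mice that were fed or fasting. The comparison set the libraries Fed_Liver and Fasting_Liver against Fed_Kidney and Fasting_Kidney, 4 libraries of the 16 in the series, and kept the genes whose difference between the organs had the same direction in the fed pair and in the fasting pair. Of 55385 genes in the deposited table, 29632 had a count in at least 1 of the 4 libraries, and 21765 of these met the rule. The mice were male C57BL/6, acquired at 12 weeks of age, and the labels name no allele or agent beyond the feeding regime. They had free access to food (Fed) or none for 24 h (Fasting). Equal parts of an organ from 3 mice of a group were pooled before the RNA was extracted, and each organ and regime gave 1 library. Liver and kidney of a regime therefore came from the same pool of mice and the fed and fasting libraries from different pools, so that the regime and the pool cannot be told apart. The spread behind each p-value is that between libraries and not between single mice.

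Liver and kidney are the main organs that make glucose and release it into the blood, by gluconeogenesis from lactate, glycerol and amino acids, and the liver also releases it from glycogen. Hepatocytes also make most plasma proteins, bile acids and urea. The cells of the kidney's proximal tubule take glucose, amino acids, phosphate and small proteins back from the filtrate, and the distal segments set its salt and water content. The comparison asked which genes these organs hold in common for making glucose and which set them apart.

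Levels are given as CPM, the counts of a gene in each 1000000 counts of its library, always with the fed library first and the fasting library second. Fold changes come from an edgeR quasi-likelihood fit over all 16 libraries on TMM-scaled counts and are written as liver minus kidney on the log2 scale, with a 95% confidence interval. A gene was called at a Benjamini-Hochberg adjusted p under 0.05 over the 23580 genes tested, a log2 fold of at least 1 in size and the same direction of CPM in both pairs. The 4 libraries held 23032656 counts (liver, fed), 24961373 (liver, fasting), 22446554 (kidney, fed) and 25776551 (kidney, fasting), so that 3 counts correspond to 0.116 to 0.134 CPM. Where the lower organ had no count, only a least fold is given, computed against 3 counts over both of its libraries. Where it had 1 to 3 counts, the ratio of counts is given with its 95% interval, which covers counting error only.

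The direction of a difference depended on the scaling. By library totals, 4362 of the genes meeting the rule were higher in liver and 17403 in kidney, so that 20.0% were higher in liver. On the TMM scale 20525 genes kept 1 direction, and 45.0% of them were higher in liver. The 10 genes with the most counts took 15.7% and 15.8% of the liver libraries and 8.79% and 9.11% of the kidney libraries. The TMM factors moved the log2 ratio of liver to kidney towards liver by 0.68 in the fed pair and 0.76 in the fasting pair, and by less on the scale of CPM + 1 used for the pairs, most so for genes at low levels. On that scale, over 12316 genes with at least 1 CPM in all 4 libraries, the scaling moved the median difference from -0.56 and -0.60 to 0.07 and 0.10. Just inside the rule stood Tmem135, with 115.3 and 131 CPM in liver and 115.3 and 114 CPM in kidney, and just outside it Hook3, with 224 and 178 CPM against 170.4 and 178 CPM. Fewer cells of a type and less RNA per cell cannot be told apart in these pooled organs.

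In all, 2827 genes were called higher in liver (12% of those tested) and 4296 higher in kidney (18.2%), together 30.2%, while 69.8% were not called. Liver thus held 39.7% of the calls, and 18.7% with total counts alone. A further 114 genes passed the p and the fold and failed only the condition on the direction of CPM. The liver genes lay at higher levels, with a median of 17.8 CPM against 8.52 CPM for the kidney genes, and 603 of them reached 100 CPM in both libraries, against 502 of the kidney genes. In the lower organ 211 liver genes and 612 kidney genes had no count. In both libraries, 994 liver genes (35.2%) and 1303 kidney genes (30.3%) stood above each of the 12 libraries of muscle, adipose tissues, heart, spleen and lung. The differences in the fed pair and in the fasting pair had a Pearson correlation of 0.957 across the genes tested, which are not independent replicates.

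**Figure D1:**
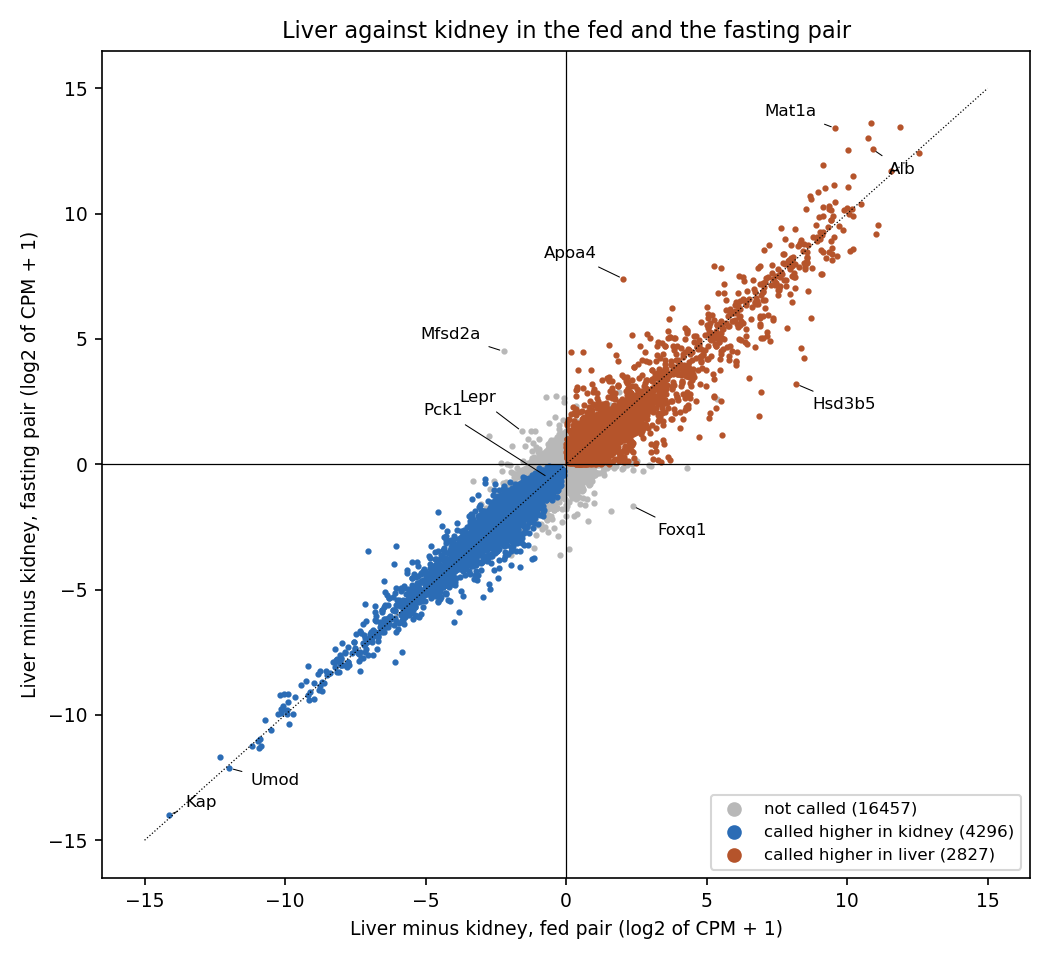
Difference between liver and kidney in the fed pair (x axis) and in the fasting pair (y axis), on the log2 scale of CPM + 1, for the 23580 genes tested, 1 point per gene; the dotted line marks equal differences. The 2827 genes called higher in liver and the 4296 called higher in kidney lie in opposite corners near the dotted line, Kap at the lower end and Alb near the upper one, while Mfsd2a and Foxq1 lie where the pairs have opposite directions.

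The libraries matched their organ labels. Alb, serum albumin (chr5:90460897-90476602 in GRCm38), had 63761 and 52136 CPM in liver and 32.2 and 7.57 CPM in kidney, and Kap, the kidney androgen-regulated protein of the proximal tubule (chr6:133849851-133853762), had 17943 and 16229.9 CPM in kidney and no count in liver. Alb was 5249-fold higher in liver (log2 fold 12.36, 95% confidence interval 9.70 to 15.02, adjusted p = 1.0e-05), and Kap was at least 165054-fold higher in kidney. The 8 hepatocyte markers were all called higher in liver and the 8 kidney tubule markers all higher in kidney. The kidney libraries nevertheless held several hepatocyte transcripts. Of the 8 hepatocyte markers, 4 were at least 2-fold lower in the fasting than in the fed kidney, Alb among them, and none was 2-fold higher on the log2 scale of CPM + 1, where 0.5004% of all genes tested were 2-fold lower in the fasting kidney. The summed level of the 8 in kidney was 1157 and 1573 CPM, most of it from Apob, which had 1106 and 1561 CPM there. Ahsg, the plasma protein fetuin-A, had 4.32 and 0.0388 CPM in kidney, and the urea cycle enzyme Cps1 had 2.41 and 0 CPM. The part of these transcripts in the results was not tested.

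Markers of other cell types were called in both directions, and their counts stand against 12% of all genes tested called higher in liver, 18.2% in kidney and 69.8% in neither. Of 10 macrophage markers 8 were called higher in liver, led by Clec4f, a lectin of the liver's resident macrophages, the Kupffer cells, with 70.8 and 57.1 CPM in liver and no count in kidney. Of 8 endothelial markers, 2 were called higher in liver, 3 in kidney and 3 in neither. Stab2, a scavenger receptor of the endothelium lining the liver sinusoids, had 160.3 and 151 CPM in liver and 10.2 and 5.47 CPM in kidney and was 31.9-fold higher in liver. Emcn and Plvap, endothelial proteins of other vessels, were called higher in kidney. Of 7 markers of fibroblasts and stellate cells, 3 were called higher in liver, 2 in kidney and 2 in neither. Reln, which the stellate cells of the liver express, had 189.5 and 169.6 CPM in liver and 12.3 and 18.0 CPM in kidney and was 20.0-fold higher in liver. Of 5 bile duct markers, 1 was called higher in liver and 4, among them Epcam and Krt7, in kidney, where epithelia also express them. The summed level of the 12 pancreatic acinar markers was 121 and 266 CPM in liver and 58.4 and 23.2 CPM in kidney, and 8 of the 11 tested were called higher in liver, 4 of the 12 being without a count in kidney. All 5 skeletal muscle genes were called higher in liver, with 164 and 141 CPM in sum in liver and 2.63 and 1.94 CPM in kidney. Further, 2 of 7 erythroid markers, 4 of 8 markers of B and T cells and none of 6 adipocyte markers were called higher in liver, and 1, none and 1 in kidney. Of 6 adrenal genes 3 were tested. Cyp21a1 was called higher in liver, at 0.478 and 0.120 CPM and with no count in kidney, and Star and Mc2r were called in neither, while Cyp11b1 and Cyp11b2 had no count in the 4 libraries. The part of these cell types in the results was not tested. Genes whose higher organ lay under 1% of the highest library of the other tissues made up 85 of the liver calls and 55 of the kidney calls, and without them 2742 and 4241 calls were left.

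Of the 10 genes with the largest liver folds at 100 CPM or more, 7 were major urinary proteins, Mup3, Mup7, Mup11, Mup13, Mup14, Mup17 and Mup18. These carriers of pheromones are made by hepatocytes and excreted in urine, and the genes of the family lie together on chromosome 4. All 20 tested Mup genes were called higher in liver, with 16465 and 14488 CPM in sum in liver and 0.401 and 0 CPM in kidney. Mup7 (chr4:60066469-60070475) had 3043 and 3298 CPM in liver and no count in kidney, at least 84248-fold higher in liver. Mup3, the member with the most counts, had 7459 and 5436 CPM in liver and 0.223 and 0 CPM in kidney. Reads of near-identical Mup copies may have been split between them, so that the level of a single copy is uncertain. The other 3 were without a count in kidney. Sult2a8, a sulfotransferase of bile acids, had 936 and 646 CPM in liver, Mug2, a protease inhibitor of plasma, 1108 and 367 CPM and Cyp2a12, a cytochrome P450, 526 and 505 CPM.

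The 10 genes with the largest kidney folds at 100 CPM or more included transporters and surface enzymes of the tubule. Kap was followed by Slc34a1 (chr13:55398187-55415592), which takes phosphate back from the filtrate, with 5066 and 3266 CPM in kidney and no count in liver, at least 39782-fold higher in kidney. Mep1a, a protease of the brush border, had 2313 and 2402 CPM in kidney and no count in liver. Cltrn, collectrin, a partner of amino acid transporters, had 1113 and 898 CPM in kidney and no count in liver. Fut9, a fucosyltransferase, Slc6a18, a transporter of amino acids, and Tmem174, a membrane protein, had no count in liver either. Their kidney levels were 951 and 719 CPM, 565 and 676 CPM and 501 and 420.1 CPM in this order. Kl, Umod and Slc5a12 complete the 10 and are described with their groups. By level, the 5 highest genes of kidney were Malat1, Kap, Rn7sk, Gpx3 and Lrp2. Malat1 and Rn7sk are nuclear RNAs that code for no protein, and neither was called. Malat1 had 16484 and 17789 CPM in kidney and 6225 and 5660.5 CPM in liver. Gpx3, the glutathione peroxidase secreted into plasma, had 8505 and 9175 CPM in kidney and 4.04 and 6.81 CPM in liver, 1031-fold higher in kidney (log2 fold -10.01, 95% confidence interval -10.91 to -9.11, adjusted p = 1.3e-08).

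The promoters of some genes on either side carry letters that HNF4A recognises, a nuclear receptor that acts in hepatocytes and in the cells of the proximal tubule. The 150 bases before the start site are shown 5′ to 3′ on the strand of the gene for 2 genes called higher in liver (Cyp3a11 and Cyp8b1), 2 called higher in kidney (Treh and Slc3a1) and 2 with high levels in both organs (Agxt2 and Aspdh), chosen after their values were seen. Capitals mark CAAAGTCCA, a form of the HNF4A site, or its reverse complement TGGACTTTG. The sequences are RefSeq's, on GRCm38.p6.
Cyp3a11: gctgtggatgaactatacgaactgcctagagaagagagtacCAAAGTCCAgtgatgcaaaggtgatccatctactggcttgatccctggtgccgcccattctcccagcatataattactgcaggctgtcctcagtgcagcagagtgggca
Cyp8b1: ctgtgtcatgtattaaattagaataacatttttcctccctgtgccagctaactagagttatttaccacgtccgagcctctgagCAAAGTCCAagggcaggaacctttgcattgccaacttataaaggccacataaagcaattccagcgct
Treh: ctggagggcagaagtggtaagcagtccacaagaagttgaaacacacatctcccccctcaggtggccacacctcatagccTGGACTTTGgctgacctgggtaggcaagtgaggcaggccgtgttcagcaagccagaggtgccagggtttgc
Slc3a1: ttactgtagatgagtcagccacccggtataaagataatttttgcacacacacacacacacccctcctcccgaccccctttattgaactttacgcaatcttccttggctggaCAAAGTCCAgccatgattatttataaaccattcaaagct
Agxt2: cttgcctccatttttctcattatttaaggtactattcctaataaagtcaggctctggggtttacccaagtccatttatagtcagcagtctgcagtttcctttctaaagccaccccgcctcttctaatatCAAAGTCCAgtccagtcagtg
Aspdh: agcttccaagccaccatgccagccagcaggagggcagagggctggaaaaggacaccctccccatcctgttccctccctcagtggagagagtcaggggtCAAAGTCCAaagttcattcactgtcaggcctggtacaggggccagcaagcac

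The windows lie at chr5:145879855-145880004 on the minus strand for Cyp3a11, chr9:121916306-121916455 on the minus strand for Cyp8b1, chr9:44673083-44673232 on the plus strand for Treh, chr17:85028197-85028346 on the plus strand for Slc3a1, chr15:10358383-10358532 on the plus strand for Agxt2 and chr7:44465285-44465434 on the plus strand for Aspdh. Those of Cyp8b1, Treh and Slc3a1 lie outside the gene as the deposited table places it, while 110 bases of the Cyp3a11 window, 44 of the Aspdh window and 1 of the Agxt2 window lie within it. The capitals begin 21 to 109 bases before the start site. Cyp3a11, a cytochrome P450 that oxidises drugs and steroids, had 3327 and 4221 CPM in liver and 4.95 and 0.0776 CPM in kidney. Cyp8b1, which sets the kind of bile acid, had 383 and 1212 CPM in liver and 0.0446 and 0.0388 CPM in kidney. In the other direction, Treh, trehalase, a sugar-splitting enzyme of the brush border, had 107 and 100.5 CPM in kidney and 0.564 and 5.49 CPM in liver. Slc3a1, a subunit of the cystine carrier, had 931 and 977 CPM in kidney and 66.1 and 15.5 CPM in liver. The levels of the other two lay closer together. Agxt2, an aminotransferase of mitochondria, had 143 and 104 CPM in liver and 107 and 101 CPM in kidney and was called in neither organ, its libraries overlapping. Aspdh, a gene named as an aspartate dehydrogenase, had 70.8 and 88.8 CPM in liver and 67.9 and 44.0 CPM in kidney and was called higher in liver (log2 fold 1.27, adjusted p = 0.0068), a call that ended with total counts alone (log2 fold 0.55, adjusted p = 0.19), without the fasting liver (log2 fold 0.77, adjusted p = 0.17) and without the fasting kidney (log2 fold 0.92, adjusted p = 0.14). All the genes shown carry the letters, so that they do not show how often these stand before genes of either organ or of both.

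CAAAGTCCA or TGGACTTTG, searched on both strands in the 150 bases before the start site, was present before 0.322% of the 27025 genes of the promoter table and 0.383% of the 14117 of them that were tested. It was present before 1.13% of 1773 genes called higher in liver (20 genes) and 0.358% of 2790 called higher in kidney (10 genes). A further set was defined after seeing the data, of 137 genes with at least 10 CPM in each of the 4 libraries and more than 4 times the level of each of the other 12 libraries. In this set, high in both organs and low elsewhere, 4 of 109 genes had the letters (3.67%), Aadat, Agxt2, Aspdh and Slc3a1. TATAAA was found before 8.89% of all genes, 5.79% of the genes tested, 9.02% of the liver genes, 5.91% of the kidney genes and 15.6% of those high in both. TGACGTCA, the site of factors that answer to cAMP, was found before 1.58%, 2.37%, 1.41%, 1.61% and 0% in the same order. These are counts of letters, which do not show that a factor binds.

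Of the 137 genes high in both organs, 70 were called higher in liver, 11 higher in kidney and 56 in neither, against 12%, 18.2% and 69.8% of all genes tested. The split depended on the scaling, since total counts alone, tried on this set after seeing the data, gave 48, 19 and 70. In the set 19 genes had opposite directions in the pairs. G6pc and Fbp1 of glucose production and Slc2a2 of glucose export were in the set, as were Hgd, which degrades tyrosine, Ass1 and Asl, which make arginine, Khk, the fructokinase, and Hnf4a. Aadat, an aminotransferase of lysine and kynurenine breakdown, had 111 and 158 CPM in liver and 320.4 and 254 CPM in kidney. Cyp2j5, a cytochrome P450 of arachidonic acid, had 837 and 542 CPM in liver and 1957 and 1713 CPM in kidney. Glyat, which joins glycine to acids for excretion, had 248 and 202 CPM in liver and 582 and 619 CPM in kidney. The libraries of kidney stood above those of liver for all 3, yet none was called. Keg1, a gene named for its expression in kidney, was called higher in kidney at 1699.8 and 1344 CPM in kidney and 260.3 and 41.9 CPM in liver. Pzp, an inhibitor of proteases, was called higher in liver at 7375 and 5076 CPM in liver and 187 and 180.0 CPM in kidney. The genes named from this set were chosen after their values were seen.

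Of 19 enzymes of gluconeogenesis tested, 2 were called higher in liver, 3 higher in kidney and 14 in neither, shares close to the 12%, 18.2% and 69.8% of all genes tested. They had a median log2 fold of 0.04 against -0.04 over all genes tested. With total counts alone this median turned to -0.70. Pck1, cytosolic PEP carboxykinase, which commits oxaloacetate to glucose, had 1066 and 4767 CPM in liver and 1638 and 6942 CPM in kidney (log2 fold 0.17, 95% confidence interval -0.90 to 1.24, adjusted p = 0.83). The fasting libraries of both organs were higher than the fed ones. By CPM the kidney library was above the liver library of the same pool in both pairs, and the organs overlapped only across the regimes. G6pc, the catalytic subunit of glucose-6-phosphatase, which frees glucose for export, lay within a narrow range at 420.1 and 487 CPM in liver and 415 and 572 CPM in kidney (log2 fold 0.61, 95% confidence interval -0.10 to 1.31, adjusted p = 0.16). Fbp1, fructose-bisphosphatase, had 625 and 1074 CPM in liver and 915 and 952 CPM in kidney. Pcx, pyruvate carboxylase, had 531 and 1025 CPM in liver and 803 and 1221 CPM in kidney. For Fbp1 the pairs had opposite directions, and for Pcx the kidney library was the higher one in both pairs. The log2 folds were 0.50 (95% confidence interval -0.74 to 1.74) and 0.35 (-0.40 to 1.10). With total counts alone the sign of all 4 turned, to -0.57, -0.12, -0.23 and -0.39. Slc37a4, which carries glucose-6-phosphate into the endoplasmic reticulum, had 93.6 and 229.5 CPM in liver and 247 and 272 CPM in kidney. It was not called, and the fed liver was the lowest library. The intervals of Pck1, G6pc, Fbp1 and Pcx reach beyond a log2 difference of 1, so that differences of this size cannot be told from none with these libraries.

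The members called belonged to side forms and to the transfer of aspartate. Got1 and Got2, the cytosolic and mitochondrial aspartate aminotransferases, were higher in liver. Got1 had 156 and 717 CPM in liver and 102 and 85.8 CPM in kidney and was 7.48-fold higher (log2 fold 2.90, 95% confidence interval 1.58 to 4.23, adjusted p = 0.0024), the fasting liver standing far above the other libraries. Got2 had 388 and 446 CPM in liver and 245 and 228 CPM in kidney and was 2.93-fold higher, a call that ended with total counts alone (log2 fold 0.82, adjusted p = 0.0066). The 3 less used forms were higher in kidney. Pck2, the mitochondrial PEP carboxykinase, had 18.4 and 23.6 CPM in kidney and 4.52 and 5.41 CPM in liver (2.55-fold). Fbp2, the fructose-bisphosphatase of muscle, had 10.9 and 19.6 CPM in kidney and 0.478 and 0.681 CPM in liver (16.2-fold). G6pc3, the widely expressed glucose-6-phosphatase, had 38.4 and 34.3 CPM in kidney and 3.99 and 5.73 CPM in liver (4.48-fold, adjusted p = 7.4e-06). These forms stood far below the main ones. In TPM, which divides by gene length and so allows genes to be compared, Pck1 made up 99.5% or more of Pck1 and Pck2 together in the 4 libraries. Fbp1 and G6pc likewise led their pairs in all 4.

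Of 23 genes by which precursors enter glucose production, 7 were called higher in liver, 5 higher in kidney and 11 in neither, against 12%, 18.2% and 69.8% of all genes tested. The median log2 fold of 0.52 turned to -0.19 with total counts alone. Slc5a8 and Slc5a12, the sodium-coupled carriers that recover lactate from the filtrate, had 3 counts or fewer in the liver libraries. Slc5a12 had 556 and 537 CPM in kidney and no count in liver, at least 5292-fold higher. Slc5a8 had 637 and 618 CPM in kidney and 0.0868 and 0.0401 CPM in liver, a ratio of 6080.3 (95% counting interval 2080.4 to 29485). Ldhb, the lactate dehydrogenase subunit that favours the oxidation of lactate, had 701 and 596 CPM in kidney and 2.34 and 1.32 CPM in liver and was 217-fold higher in kidney (log2 fold -7.76, 95% confidence interval -8.48 to -7.05, adjusted p = 1.5e-08). Ldha, the other subunit, had 447 and 913 CPM in liver and 476 and 460.3 CPM in kidney and was not called. Its share of the TPM of the pair was 98.9% and 99.7% in liver and 24.3% and 26.8% in kidney.

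The channels for glycerol differed. Aqp9, the glycerol channel of hepatocytes, had 442 and 517 CPM in liver and 0.267 and 0.155 CPM in kidney and was 3744-fold higher in liver (log2 fold 11.87, 95% confidence interval 9.69 to 14.05, adjusted p = 2.9e-06). Aqp7, the channel of proximal tubules and fat cells, had 23.5 and 35.2 CPM in kidney and 0.478 and 0.761 CPM in liver and was 28.2-fold higher in kidney. Liver was thus the higher organ for Aqp9 and kidney for Aqp7, and the libraries of the organs did not overlap for either. Of the 10 aquaporins, 6 were called higher in kidney and 2 in liver, against 18.2% and 12% of all genes tested. Gk, glycerol kinase, had 978 and 923 CPM in kidney and 136 and 278 CPM in liver (log2 fold -1.50, 95% confidence interval -2.73 to -0.27, adjusted p = 0.050) and missed the call by its p, although every kidney library lay above every liver library.

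Several genes by which amino acids enter were higher in liver. Gls2, a glutaminase, had 317 and 335 CPM in liver and 0.312 and 0.194 CPM in kidney and was 2118-fold higher in liver. Slc38a3, which takes up glutamine, was higher in liver at 1109 and 957 CPM in liver and 54.1 and 184 CPM in kidney, and its call ended without the fed kidney library (log2 fold 3.17, adjusted p = 0.057). Gpt and Gpt2, the alanine aminotransferases, were 17.2-fold and 16.2-fold higher in liver. Gpt2 had 384 and 1143 CPM in liver and 70.8 and 75.8 CPM in kidney, the fasting liver being the highest library. Sds, serine dehydratase, had 127 and 229 CPM in liver and 0.134 and 0 CPM in kidney, a ratio of 4778 (95% counting interval 1634 to 23173). Glud1, glutamate dehydrogenase, had 1215 and 666 CPM in liver and 478 and 731 CPM in kidney and was not called, since the pairs had opposite directions. Sord, through which sorbitol enters, had 1137 and 830.3 CPM in liver and 1570.0 and 1623 CPM in kidney. Khk, through which fructose enters, had 242 and 123 CPM in liver and 424 and 393 CPM in kidney. Neither was called, although the kidney libraries lay above those of liver.

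**Figure D2:**
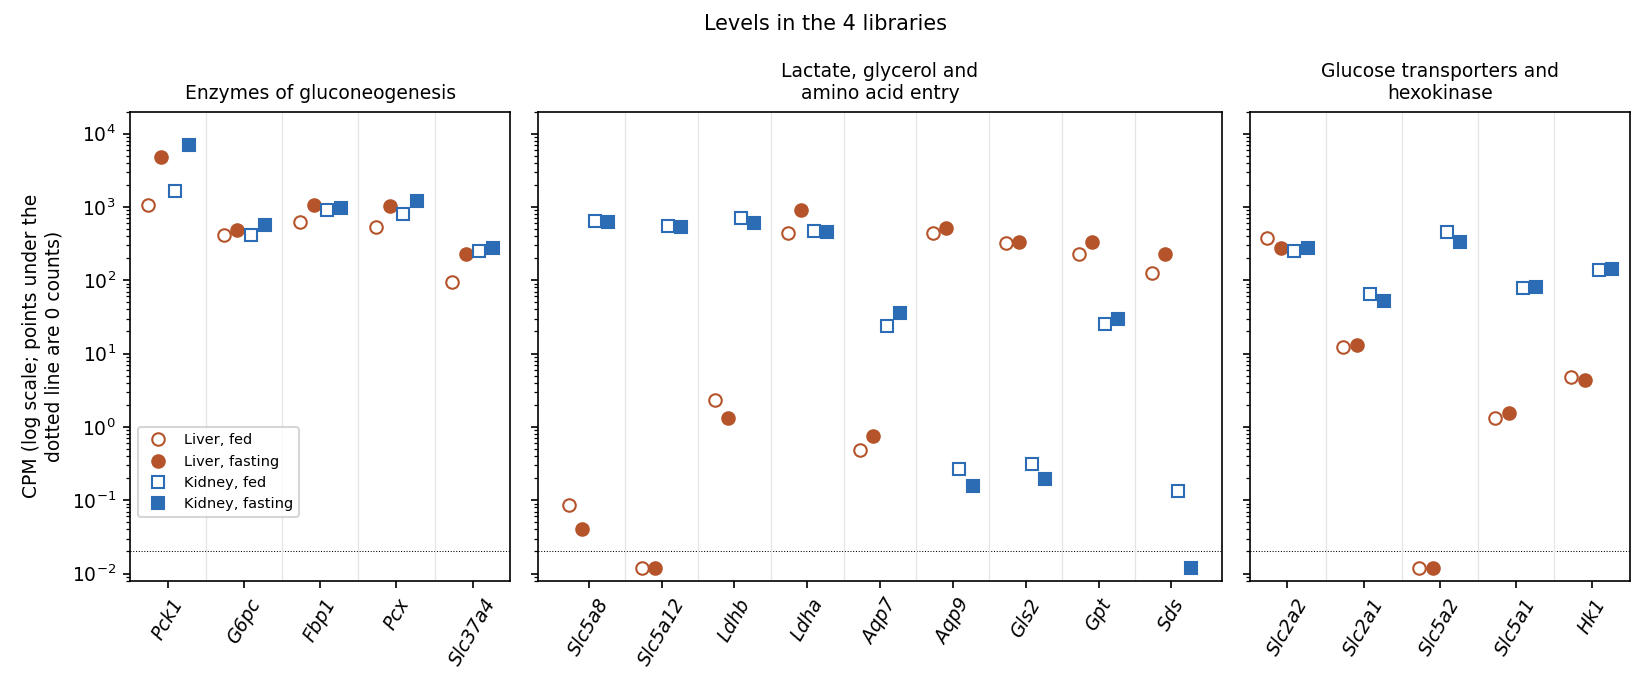
CPM (log axis) of enzymes of gluconeogenesis, of genes by which lactate, glycerol and amino acids enter, and of glucose transporters and a hexokinase, 1 symbol per library: circles liver, squares kidney, open fed, filled fasting, with 0 counts drawn under the dotted line. Liver and kidney overlap or lie close for Pck1, G6pc, Fbp1 and Pcx and are apart by orders of magnitude for Slc5a12, Ldhb, Aqp9, Gls2 and Slc5a2.

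Glucose itself is exported from both organs through Slc2a2, the GLUT2 carrier, and taken back from the filtrate by kidney alone. Of 13 transporters tested, 2 were called higher in liver, 8 higher in kidney and 3 in neither, against 12%, 18.2% and 69.8% of all genes tested. Slc2a2 had 372 and 278 CPM in liver and 248 and 272 CPM in kidney and stood at the edge of the call (log2 fold 1.02, 95% confidence interval 0.59 to 1.45, adjusted p = 0.0014). The call ended with total counts alone (log2 fold 0.30, adjusted p = 0.23), without the fed liver (log2 fold 0.94, adjusted p = 0.012) and without the fed kidney (log2 fold 0.77, adjusted p = 0.033). Slc5a2, the SGLT2 carrier that takes back most filtered glucose, had 459 and 327 CPM in kidney and no count in liver, at least 3766-fold higher in kidney. Slc5a1, SGLT1, which takes back the rest, had 77.5 and 81.1 CPM in kidney and 1.30 and 1.56 CPM in liver and was 33.4-fold higher (log2 fold -5.06, 95% confidence interval -6.02 to -4.10, adjusted p = 6.9e-06). Slc5a10, a carrier of mannose and fructose, and Slc5a9, a carrier of mannose, had no count in liver. Slc5a10 had 161 and 306 CPM in kidney and Slc5a9 40.9 and 33.3 CPM. Slc5a11, a carrier of inositol, had 56.2 and 38.8 CPM in kidney and 0.260 and 0.160 CPM in liver (135-fold). Slc2a1 and Slc2a4, GLUT1 and GLUT4, were 2.76-fold and 15.8-fold higher in kidney. Slc2a5, the fructose carrier, had 71.6 and 109 CPM in kidney and 3.56 and 7.89 CPM in liver and was 9.44-fold higher in kidney, and its call ended when any 1 of the 4 libraries was left out, with log2 folds of -4.29 to -2.59 and adjusted p of 0.053 to 0.19. Slc2a9, a urate carrier, was the other transporter called higher in liver, at 51.4 and 36.9 CPM in liver and 18.4 and 21.3 CPM in kidney (3.65-fold).

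Of 17 genes that control glycolysis, 5 were called higher in liver, 6 higher in kidney and 6 in neither, against 12%, 18.2% and 69.8% of all genes tested. Hk1, the hexokinase of most tissues, had 137 and 140.2 CPM in kidney and 4.86 and 4.33 CPM in liver and was 18.4-fold higher in kidney (log2 fold -4.20, 95% confidence interval -4.75 to -3.65, adjusted p = 2.0e-07). Further down, Pfkp, a phosphofructokinase, Pkm, the pyruvate kinase of most tissues, and Aldoa, the aldolase of glycolysis, were 9.34-fold, 8.13-fold and 3.40-fold higher in kidney. Pkm had 237 and 199 CPM in kidney and 17.2 and 15.1 CPM in liver. Pklr, the liver form, had 202 and 41.0 CPM in liver and 25.3 and 41.5 CPM in kidney and was not called, the fasting liver lying at the level of the fasting kidney.

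Of 13 pairs of related forms, 6 changed their leading form between the organs in all 4 libraries when compared in TPM. The share of the first gene was 94.8% and 80.7% in liver and 14.2% and 24.4% in kidney for Pklr of Pklr and Pkm. It was 97.5% and 99.5% in liver and 0.420% and 0.0135% in kidney for Mat1a of Mat1a and Mat2a. The other exchanged pairs were Aqp9 and Aqp7, Pfkfb1 and Pfkfb2, Pygl and Pygb, and Ldha and Ldhb. In 5 pairs the same form led in all 4 libraries, among them Slc2a2 over Slc2a1, with 94.8% and 92.9% in liver and 70.0% and 76.3% in kidney. For Gys2 with Gys1 the leading form differed between the kidney libraries, and for Gpt with Gpt2 between the liver libraries. The pairs were chosen with such exchanges in mind, so that their number is a description.

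**Figure D3:**
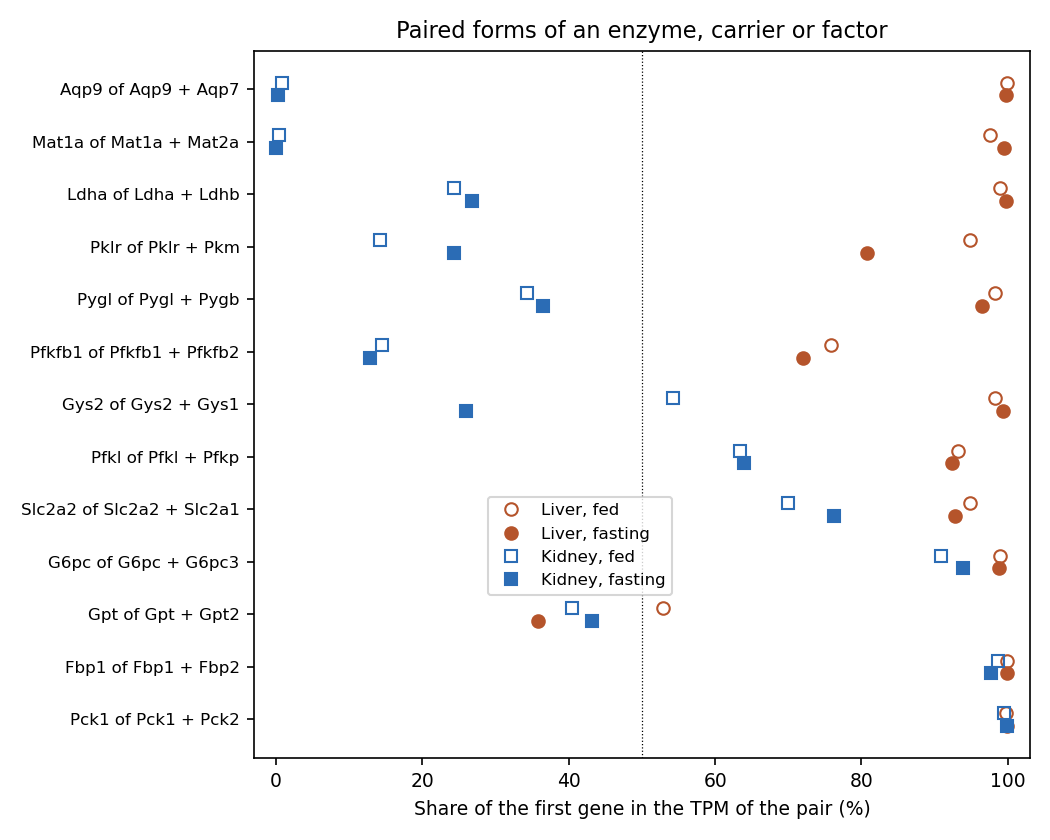
Share of the first gene in the summed TPM of 13 pairs of related genes (x axis, %), 1 symbol per library: circles liver, squares kidney, open fed, filled fasting. In the 6 exchanged pairs the circles lie right of 50% and the squares left of it, while for pairs such as Pck1 and Pck2 all 4 symbols lie near 100%.

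Of 19 glycogen genes tested, 8 were called higher in liver, 3 higher in kidney and 8 in neither, against 12%, 18.2% and 69.8% of all genes tested, so that the kidney share lay near that of all genes. The median log2 fold of 0.58 turned to -0.13 with total counts alone. Pygl, the liver glycogen phosphorylase, had 591 and 234 CPM in liver and 36.2 and 38.9 CPM in kidney and was 16.7-fold higher in liver (log2 fold 4.06, 95% confidence interval 3.26 to 4.86, adjusted p = 4.9e-06). Pygb, the brain form, had 48.5 and 47.3 CPM in kidney and 7.42 and 6.01 CPM in liver and was 4.36-fold higher in kidney. Gys2, the liver glycogen synthase, had 130.2 and 408 CPM in liver and 24.6 and 10.4 CPM in kidney and was 26.3-fold higher in liver. Gys1, the form of most tissues, had 37.5 and 53.5 CPM in kidney and 4.21 and 4.77 CPM in liver and was 6.13-fold higher in kidney. Ppp1r3b, which brings a phosphatase to glycogen, had 348 and 149 CPM in liver and 1.69 and 1.51 CPM in kidney and was 234-fold higher in liver (log2 fold 7.87, 95% confidence interval 6.75 to 8.99, adjusted p = 3.8e-07). Its relative Ppp1r3g was counted in liver alone, at 0.304 and 7.41 CPM. The subunits of phosphorylase kinase, among them Phka2 at 42.4 and 37.1 CPM in liver and 35.2 and 36.9 CPM in kidney, were not called.

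Of 28 regulators of glucose production tested, 13 were called higher in liver, 6 higher in kidney and 9 in neither, against 12%, 18.2% and 69.8% of all genes tested. The median log2 fold of 0.65 turned to -0.07 with total counts alone. Gcgr, the glucagon receptor, had 201 and 250.1 CPM in liver and 32.3 and 39.5 CPM in kidney and was 10.4-fold higher in liver (log2 fold 3.38, 95% confidence interval 2.79 to 3.96, adjusted p = 1.8e-06). Its kidney level was nevertheless above that of every other tissue of the series by more than 4 times. Insr, the insulin receptor, had 306 and 323 CPM in liver and 157 and 235 CPM in kidney and was 2.70-fold higher in liver, a call lost with total counts alone (log2 fold 0.72, adjusted p = 0.0025). Adra1b, an adrenergic receptor, had 60.7 and 15.4 CPM in liver and 2.32 and 1.63 CPM in kidney and was called higher in liver. Pth1r, the receptor of parathyroid hormone, had 447 and 404 CPM in kidney and 12.1 and 6.85 CPM in liver and was 27.5-fold higher in kidney (log2 fold -4.78, 95% confidence interval -5.53 to -4.03, adjusted p = 8.0e-07). Igf1r, the receptor of insulin-like growth factor, had 423 and 378 CPM in kidney and 10.2 and 11.3 CPM in liver and was 23.2-fold higher in kidney. Hsd11b1, which regenerates active glucocorticoid, was 3.28-fold higher in liver at 493 and 348 CPM in liver and 195 and 236 CPM in kidney. Hsd11b2, which inactivates it, was called higher in kidney at 57.2 and 47.9 CPM in kidney and 0 and 0.0801 CPM in liver.

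Some of these regulators are transcription factors. Hnf4a, a nuclear receptor of epithelia in both organs, had 619.9 and 964 CPM in liver and 954 and 950.2 CPM in kidney (log2 fold 0.38, 95% confidence interval -1.27 to 2.03, adjusted p = 0.73). It was not called, and the sign of the difference turned with total counts alone (-0.34). Nr1h4, the bile acid receptor FXR, had 116 and 139.9 CPM in liver and 143 and 188 CPM in kidney. Foxo1, a target of insulin, had 46.5 and 60.1 CPM in liver and 50.8 and 55.3 CPM in kidney. Neither was called. Foxa1, Foxa2, Foxa3 and Onecut1, the factors of the early liver, were called higher in liver. Foxa3 had 61.7 and 66.4 CPM in liver and 0.0891 and 0.0388 CPM in kidney, a ratio of 1701 (95% counting interval 582 to 8255). Cebpa had 307 and 297 CPM in liver and 31.1 and 43.3 CPM in kidney and was 13.3-fold higher in liver. Nr5a2, a regulator of bile acid genes, had 107 and 92.0 CPM in liver and 1.29 and 1.09 CPM in kidney and was 142-fold higher. In kidney, Pax8, a factor of the nephron, had 126 and 137 CPM in kidney and 0.217 and 0.0401 CPM in liver (714-fold). Ppargc1a, the coactivator PGC-1alpha, had 135 and 153 CPM in kidney and 14.8 and 34.3 CPM in liver and was 3.59-fold higher in kidney. Ppara, the fatty acid receptor, had 145 and 275 CPM in liver and 86.9 and 131 CPM in kidney and was 3.20-fold higher in liver. The call of Ppara ended with total counts alone (log2 fold 0.94, adjusted p = 0.047) and without the fasting liver (log2 fold 1.05, adjusted p = 0.058).

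The Hox genes, which pattern the body axis, were counted almost wholly in kidney. Of 32 tested, 30 were called higher in kidney and none in liver, where the background was 18.2% and 12%. Their summed level was 480.3 and 485 CPM in kidney and 4.12 and 5.17 CPM in liver. Hoxd8 had 106 and 96.2 CPM in kidney and 0.0868 and 0.240 CPM in liver. Hoxa9 had 51.9 and 52.8 CPM in kidney and no count in liver, and Hoxa10 37.9 and 32.6 CPM in kidney and no count in liver. Pax2, which like Pax8 forms the nephron, had 17.1 and 15.9 CPM in kidney and no count in liver. The liver libraries were at or near 0 for all of these. Among the Hox genes tested, Hoxa13 and Hoxa2 were not called. The Hox and Pax genes, like the other families counted by symbol and Cyp3a11, were chosen after their values were seen.

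The genes of the urea cycle were higher in liver at its first steps, and less so at the steps that make arginine. Of 15 genes tested, 10 were called higher in liver, 3 higher in kidney and 2 in neither, against 12%, 18.2% and 69.8% of all genes tested. Cps1, which begins the urea cycle, had 6296 and 12589 CPM in liver and 2.41 and 0 CPM in kidney. Otc, the next enzyme, had 487 and 309 CPM in liver and 0.267 and 0 CPM in kidney. Both liver libraries stood far above the kidney libraries, with log2 folds of 13.65 and 12.28. In the steps that follow, Ass1, which joins citrulline and aspartate, had 1569.6 and 2377 CPM in liver and 1808 and 1161 CPM in kidney. It passed the p and the fold (log2 fold 1.14, 95% confidence interval 0.38 to 1.91, adjusted p = 0.021). It was not called, since the pairs had opposite directions, the fasting kidney being the lowest library. Asl, which releases arginine, had 299 and 1507 CPM in liver and 158 and 164 CPM in kidney and was 8.48-fold higher in liver, where the fasting library was 5.04-fold above the fed one. Gatm, which makes the precursor of creatine from arginine, had 673 and 247 CPM in kidney and 12.6 and 6.81 CPM in liver and was 27.5-fold higher in kidney (log2 fold -4.78, 95% confidence interval -5.37 to -4.19, adjusted p = 1.3e-07). Gamt, which completes creatine, had 112 and 38.9 CPM in liver and 12.8 and 12.4 CPM in kidney and was 8.56-fold higher in liver. Odc1, ornithine decarboxylase, had 1180.5 and 316 CPM in kidney and 49.1 and 84.3 CPM in liver and was 7.01-fold higher in kidney, a call that ended without the fed kidney (log2 fold -1.36, adjusted p = 0.076) or the fed liver (log2 fold -2.41, adjusted p = 0.061).

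Most enzymes of amino acid breakdown were liver genes. Of 31 tested, 21 were called higher in liver, 3 higher in kidney and 7 in neither, against 12%, 18.2% and 69.8% of all genes. Tat, which begins tyrosine breakdown, had 839.6 and 2171 CPM in liver and 0.401 and 0.0388 CPM in kidney. Tdo2, of tryptophan, had 1552 and 2553 CPM in liver and 0.490 and 0.194 CPM in kidney, and Hal, of histidine, 558 and 605 CPM in liver and 0.267 and 0.116 CPM in kidney. The kidney libraries of all 3 held only traces. Hpd, which follows Tat, had 1385 and 2470.1 CPM in liver and 39.2 and 69.8 CPM in kidney and was 58.4-fold higher in liver. The methionine cycle differed by form. Mat1a, the methionine adenosyltransferase of the liver, had 2019 and 11283 CPM in liver and 1.65 and 0.0388 CPM in kidney. Mat2a, the form of other tissues, had 506 and 373 CPM in kidney and 65.8 and 79.7 CPM in liver (3.57-fold higher in kidney, adjusted p = 1.0e-04). Bhmt, which remethylates homocysteine with betaine, had 2629 and 7799 CPM in liver and 5.35 and 3.69 CPM in kidney and was higher in liver (log2 fold 10.74, 95% confidence interval 8.86 to 12.61). Cbs, which turns homocysteine towards cysteine, had 485 and 398 CPM in liver and 210.4 and 149 CPM in kidney (4.02-fold). Aass, of lysine, had 393 and 1028 CPM in liver and 770.3 and 879.7 CPM in kidney and was called in neither organ. Dao, the oxidase of D-amino acids, had 385 and 301 CPM in kidney and 0.0434 and 0 CPM in liver. Hao2, a peroxisomal hydroxy acid oxidase, had 260.0 and 194 CPM in kidney and no count in liver, at least 2176-fold higher in kidney.

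Genes of ketone bodies and fatty acid oxidation were called in either direction. Of 25 tested, 8 were called higher in liver, 4 higher in kidney and 13 in neither, against 12%, 18.2% and 69.8% of all genes tested. Oxct1, which activates ketone bodies for use and which hepatocytes lack, had 1589.9 and 1259.8 CPM in kidney and 6.25 and 4.37 CPM in liver and was 164-fold higher in kidney (log2 fold -7.36, 95% confidence interval -7.86 to -6.85, adjusted p = 5.2e-09). Cpt1a, which admits fatty acids to mitochondria, had 356 and 1439 CPM in liver and 562 and 952 CPM in kidney. Acadm, a dehydrogenase of the beta-oxidation, had 306 and 661 CPM in liver and 909 and 1399 CPM in kidney. Ehhadh, of peroxisomes, had 445 and 2658 CPM in liver and 768 and 2645 CPM in kidney. None of these 3 was called, and the fasting library was above the fed one in both organs for each. Cyp4b1, a cytochrome P450 of fatty acids, had 3882 and 3207 CPM in kidney and 17.0 and 19.7 CPM in liver and was 123-fold higher in kidney.

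Plasma proteins were liver genes throughout. All 30 plasma proteins listed were called higher in liver, none of them with a log2 fold under 4.79, and they took 17.9% and 16.3% of the liver counts and 0.139% and 0.189% of the kidney counts. Serpina3k, a protease inhibitor, had 10286 and 11401 CPM in liver and 1.74 and 0 CPM in kidney. Trf, transferrin, had 12630.5 and 8571 CPM in liver and 44.0 and 46.8 CPM in kidney. C3, the central complement protein, had 7906 and 7995 CPM in liver and 40.5 and 41.4 CPM in kidney and was 320.4-fold higher in liver (log2 fold 8.32, 95% confidence interval 7.82 to 8.83, adjusted p = 2.8e-09). Apob, the protein of lipoproteins that carry triglycerides, had the smallest fold of the 30. It had 20066 and 24222 CPM in liver and 1106 and 1561 CPM in kidney, 27.6-fold higher in liver (log2 fold 4.79, 95% confidence interval 3.81 to 5.77, adjusted p = 6.8e-06), and in kidney stood more than 4 times above every tissue outside the pair. Apoe had 12016 and 12931 CPM in liver and 140.2 and 158 CPM in kidney (138-fold). By family, 18 of 23 tested Serpina genes, 14 of 18 Apo genes and 11 of 15 complement genes were called higher in liver, and 1 of each in kidney.

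Of 23 genes of bile acid synthesis and transport tested, 15 were called higher in liver, 4 higher in kidney and 4 in neither, against 12%, 18.2% and 69.8% of all genes tested. Cyp7a1, the rate-limiting enzyme of bile acid synthesis, had 131 and 134 CPM in liver and no count in kidney, at least 3516-fold higher in liver. Cyp8b1, with the values given above, was called as well. Cyp27a1, of the alternative route, had 498 and 361 CPM in liver and 45.4 and 61.4 CPM in kidney (13.5-fold). Cyp7b1 of that route had 303 and 333 CPM in liver and 255 and 371 CPM in kidney and was not called. For uptake from blood, Slc10a1 (NTCP) had 507 and 538 CPM in liver and 0.579 and 0.233 CPM in kidney. For export into bile, Abcb11, the bile salt pump, had 1106 and 339 CPM in liver and 0.579 and 0 CPM in kidney. Both were higher in liver, with log2 folds of 11.08 and 11.98. Slc10a2, which takes bile acids back from the filtrate, had 113 and 77.7 CPM in kidney and 28.4 and 6.13 CPM in liver and was 4.12-fold higher in kidney (log2 fold -2.04, 95% confidence interval -2.92 to -1.16, adjusted p = 0.002). Slc51a and Slc51b, the subunits of the exporter at the base of epithelia, were kidney genes too. Slc51a had 44.3 and 22.2 CPM in kidney and no count in liver. Slc51b had 20.3 and 18.4 CPM in kidney and 0.174 and 0.120 CPM in liver (78.5-fold).

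Of the families that handle drugs and foreign compounds, several were called mostly in 1 direction, against 12% of all genes tested called higher in liver and 18.2% in kidney. Of 43 tested Cyp2 genes, 32 were called higher in liver and 7 in kidney, and all 4 tested Cyp3a genes were called higher in liver. Cyp2e1, which oxidises ethanol, had 5477 and 8507 CPM in liver and 1398 and 1465 CPM in kidney and was 7.77-fold higher in liver (log2 fold 2.96, 95% confidence interval 2.14 to 3.77, adjusted p = 6.7e-05), against the direction of the proximal tubule list that names it. Of 19 tested Ugt genes, which join glucuronic acid to compounds, 11 were called higher in liver and 6 in kidney. The Slc22a carriers of organic ions went the other way, with 17 of 23 called higher in kidney and 3 in liver. In the list of cation and anion drug transporters, 18 of 26 tested were called higher in kidney and 5 in liver. Slc22a12, the urate carrier URAT1, had 1885 and 2144 CPM in kidney and 0 and 0.0801 CPM in liver. Slc22a6, the anion carrier OAT1, had 1016 and 900.3 CPM in kidney and 0.0434 and 0 CPM in liver. Slc22a8, its relative OAT3, had 428 and 463 CPM in kidney and no count in liver, and Slc22a2, the cation carrier OCT2, 337 and 321 CPM in kidney and no count in liver. The liver libraries had at most 2 counts of each. Among the pumps, Abcc2, which exports conjugates, had 935 and 856 CPM in liver and 629.9 and 693 CPM in kidney and was 2.24-fold higher in liver, but not with total counts alone (log2 fold 0.44, adjusted p = 0.075). Abcg2 was 3.01-fold higher in kidney at 597 and 638 CPM in kidney and 129 and 118 CPM in liver, and Slc47a1, a proton-coupled exporter of cations, 4.04-fold higher at 853 and 744 CPM in kidney and 110.4 and 125 CPM in liver. Copies within the Cyp, Ugt and Serpina families may share reads.

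Each segment of the nephron was represented among the kidney genes. Of the 25 genes of the proximal tubule, 23 were called higher in kidney, Cyp2e1 higher in liver and Slc22a30 in neither. The median log2 fold was -11.37, or -11.11 with genes lacking a liver count set to their least fold. Lrp2, megalin, which takes up filtered proteins, had 8220.3 and 6935 CPM in kidney and 3.08 and 2.28 CPM in liver (log2 fold -10.75, 95% confidence interval -13.48 to -8.02, adjusted p = 3.6e-05). Miox, which degrades inositol, had 1205 and 711 CPM in kidney and 0.0434 and 0.200 CPM in liver. Acsm2, an acyl-CoA synthetase, had 5176 and 4487 CPM in kidney and 1.82 and 0.881 CPM in liver. Both were called higher in kidney. Slc3a1, whose promoter is shown above, was 15.3-fold higher in kidney. Slc4a4, the bicarbonate carrier of the tubule's basal side, had 1932 and 2018 CPM in kidney and 169 and 353 CPM in liver and was 4.77-fold higher, and its call ended without the fed liver (log2 fold -1.87, adjusted p = 0.061).

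Of the 28 genes of the distal segments, 25 were called higher in kidney and none in liver, and 11 of the 28 had no liver count. Umod, uromodulin of the thick ascending limb, had 4055 and 4634 CPM in kidney and 0 and 0.0401 CPM in liver. Slc12a1, the target of loop diuretics in the same segment, had 1958 and 2623 CPM in kidney and 0 and 0.0401 CPM in liver. Slc12a3, the thiazide-sensitive carrier of the distal convoluted tubule, had 864 and 767 CPM in kidney and 0.0868 and 0.240 CPM in liver and was higher in kidney with a log2 fold of -11.51 (-12.43 to -10.59). Further on, Aqp2, the water channel of the collecting duct, had 147 and 80.9 CPM in kidney and no count in liver. Scnn1b, a subunit of the sodium channel ENaC, had 45.4 and 48.2 CPM in kidney and no count in liver, and Foxi1, a factor of intercalated cells, 31.5 and 26.3 CPM in kidney and no count in liver. The 3 genes not called were Pvalb, a calcium-binding protein, Aqp4, a water channel, and Scnn1a, another ENaC subunit. Pvalb had 8.25 and 7.05 CPM in liver and 8.69 and 6.48 CPM in kidney. Aqp4 had 72.0 and 75.5 CPM in kidney and 7.95 and 24.4 CPM in liver, and Scnn1a 76.5 and 84.7 CPM in kidney and 25.0 and 12.1 CPM in liver. Of 11 genes of the glomerulus and the renin cells, 9 were called higher in kidney and 2 in liver. Nphs1, nephrin, had 26.0 and 24.9 CPM in kidney and 0.130 and 0.200 CPM in liver (90.9-fold). Podxl, the coat protein podocalyxin, had 220.1 and 203 CPM in kidney and 13.6 and 10.5 CPM in liver (10.7-fold). Plce1 of that list, a phospholipase, was called higher in liver, at 28.2 and 34.7 CPM in liver and 20.4 and 17.5 CPM in kidney.

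The pump that drives reabsorption was represented among the kidney genes. Atp1b1, a subunit of the sodium pump, had 1149.8 and 1309 CPM in kidney and 46.6 and 43.7 CPM in liver and was 16.4-fold higher in kidney (log2 fold -4.04, 95% confidence interval -5.50 to -2.58, adjusted p = 5.1e-04), and the organs did not overlap. Fxyd2, a regulatory subunit of the pump, had 1265 and 1132 CPM in kidney and 0.130 and 0.160 CPM in liver (log2 fold -12.25). Atp1b1 belongs to a list of 35 genes of the respiratory chain, ATP synthase and sodium pump, in which 4 were called higher in kidney. Among these were Cox7a1 and Cox6a2, forms of heart and muscle, at 8.87 and 6.91 CPM in kidney and 0.912 and 0.961 CPM in liver for Cox7a1. The remaining 31 were not called, against 18.2% of all genes tested called higher in kidney and 69.8% not called. Atp5b, a catalytic subunit of ATP synthase, had 2767 and 2636 CPM in kidney and 992 and 1113 CPM in liver (log2 fold -0.63, 95% confidence interval -1.08 to -0.18, adjusted p = 0.029). The call depended on the scaling. The list's median difference by library totals was -1.10 and -0.92 in the pairs, and its median fitted log2 fold was -0.29. Of 22 tested subunits of the proton pump of vesicles and intercalated cells (Atp6v), 12 were called higher in kidney and none in liver.

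Of 25 genes of hormones, their precursors and their processing, 13 were called higher in liver, 9 higher in kidney and 3 in neither, against 12%, 18.2% and 69.8% of all genes tested. In the renin-angiotensin system, Agt, angiotensinogen, had 417 and 488 CPM in liver and 48.7 and 99.7 CPM in kidney and was 10.3-fold higher in liver (log2 fold 3.36, 95% confidence interval 2.67 to 4.04, adjusted p = 6.8e-06). Ren1, renin, which cleaves it, had 42.1 and 24.1 CPM in kidney and 0 and 0.200 CPM in liver (179-fold). Ace, the converting enzyme, had 321 and 319.6 CPM in kidney and 1.78 and 2.32 CPM in liver (94.0-fold higher in kidney). The substrate was thus higher in liver and these enzymes in kidney. In vitamin D metabolism, Cyp2r1, which makes the circulating form, was 11.6-fold higher in liver at 23.8 and 7.17 CPM in liver and 2.85 and 1.28 CPM in kidney. Cyp27b1, which activates it, had 3.30 and 3.61 CPM in kidney and 0.174 and 0 CPM in liver (24.4-fold). Cyp24a1, which inactivates it, had 162 and 99.0 CPM in kidney and no count in liver, and Vdr, its receptor, 232 and 292 CPM in kidney and 0.0434 and 0.0801 CPM in liver. These 3 were higher in kidney. The coreceptors of the hormone-like fibroblast growth factors were exchanged as well. Klb, beta-Klotho, had 53.7 and 53.3 CPM in liver and 0.312 and 0.660 CPM in kidney (178-fold higher in liver, adjusted p = 8.8e-09). Kl, Klotho, had 942 and 578 CPM in kidney and no count in liver, at least 7243-fold higher in kidney.

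Growth factors and their carriers were split in a like way. Igf1 had 737 and 675 CPM in liver and 21.8 and 13.4 CPM in kidney and was 69.4-fold higher in liver (log2 fold 6.12, 95% confidence interval 5.29 to 6.94, adjusted p = 2.6e-07). Igfbp1 was 9.02-fold higher in liver at 28.1 and 186 CPM in liver and 9.67 and 15.98 CPM in kidney, whereas Igfbp3 was 9.14-fold higher in kidney at 281 and 333 CPM in kidney and 20.6 and 19.4 CPM in liver. Ghr, the receptor of growth hormone, had 769 and 337 CPM in liver and 908 and 958 CPM in kidney and was not called. Egf had 2368 and 3415 CPM in kidney and 1.43 and 2.40 CPM in liver and was 905-fold higher in kidney. Hamp, hepcidin, the regulator of iron, had 263 and 334 CPM in liver and 0.267 and 0 CPM in kidney. Dio1, a deiodinase of thyroid hormone, had 98.2 and 93.6 CPM in liver and 17.5 and 18.9 CPM in kidney and was 8.73-fold higher in liver, a call that DESeq2 did not make (log2 fold 3.13, adjusted p = 0.064). Epo, erythropoietin, had no count in liver and at most 0.0776 CPM in kidney, which is under the level of 3 counts.

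**Figure D4:**
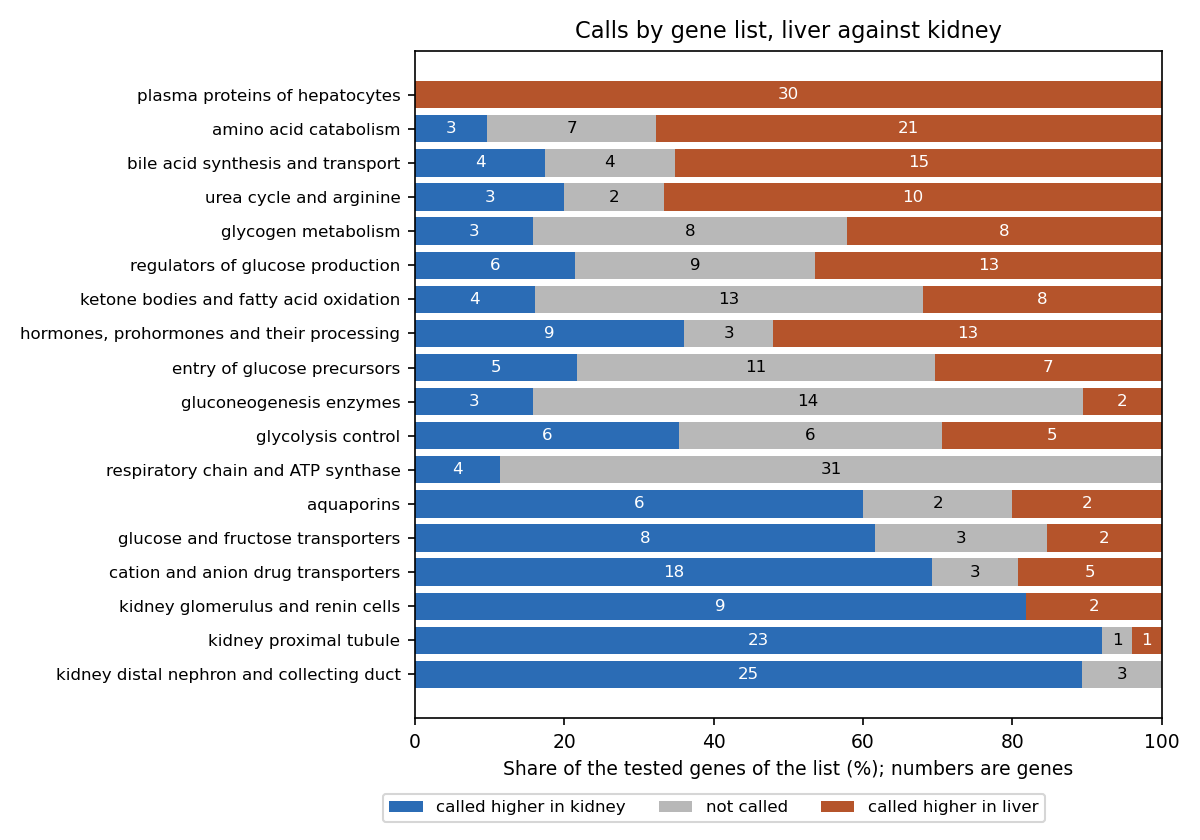
Share of the tested genes of each list (x axis, %) called higher in kidney, in neither organ or higher in liver, with the number of genes printed in each bar. Plasma proteins are called higher in liver in 30 of 30, proximal tubule genes higher in kidney in 23 of 25 and distal genes in 25 of 28, while 14 of 19 gluconeogenesis enzymes and 31 of 35 respiratory chain genes are called in neither, as are 69.8% of all genes tested.

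The difference between the organs also moved with the regime in some genes, which was described with 1 library on each side and no test. Among the 7123 genes called, the difference changed by at least 2 on the log2 scale of CPM + 1 between the pairs in 89, of which 73 were liver genes and 16 kidney genes. Pck1 was 4.47-fold higher in the fasting than in the fed liver and 4.24-fold in kidney, so that its difference between the organs barely moved. Cyp4a14, a cytochrome P450 of fatty acids, had 491 and 8253 CPM in liver and 10.9 and 1354 CPM in kidney, a difference of 16.8-fold in liver and 125-fold in kidney. Cyp4a10, its relative, had 308 and 4214 CPM in liver and 163 and 1613 CPM in kidney. Both were called in neither organ, and Cyp4a copies may share reads. Of the 25 genes of ketone bodies and fatty acid oxidation, 10 were at least 2-fold higher in the fasting library in liver and 10 in kidney on this scale, against 1.31% and 0.539% of all genes tested.

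Where a called gene reached 20 CPM in any library of the pairs, the difference could be followed. It moved furthest towards liver in the fasting pair for Apoa4, E030018B13Rik, Gm48199, Mat1a and Cgref1. Apoa4, an apolipoprotein of the fasting and lipid-loaded liver and gut, had 50.7 and 2971 CPM in liver and 11.6 and 16.6 CPM in kidney, which is 58.6-fold higher with fasting in liver and 1.43-fold in kidney. Cgref1 was called higher in kidney at 170.4 and 134 CPM in kidney and 0.304 and 11.2 CPM in liver. E030018B13Rik and Gm48199 had no count in kidney, and in liver 0.130 and 21.2 CPM and 0.521 and 21.6 CPM. For all 5 the larger change between regimes lay in liver on this scale. It moved furthest towards kidney for 5 genes that included Hsd3b5, Serpina7 and Serpina4-ps1. Hsd3b5, a steroid enzyme of the male liver, had 289.7 and 8.57 CPM in liver and 0 and 0.0388 CPM in kidney. Serpina4-ps1, a pseudogene, had 353 and 18.1 CPM in liver and no count in kidney. Serpina7, the carrier of thyroid hormone, had 52.1 and 2.68 CPM in liver and 0.134 and 0.660 CPM in kidney, and its call ended without the fed kidney (log2 fold 4.53, adjusted p = 0.063). For these 3 the change lay in liver.

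**Figure D5:**
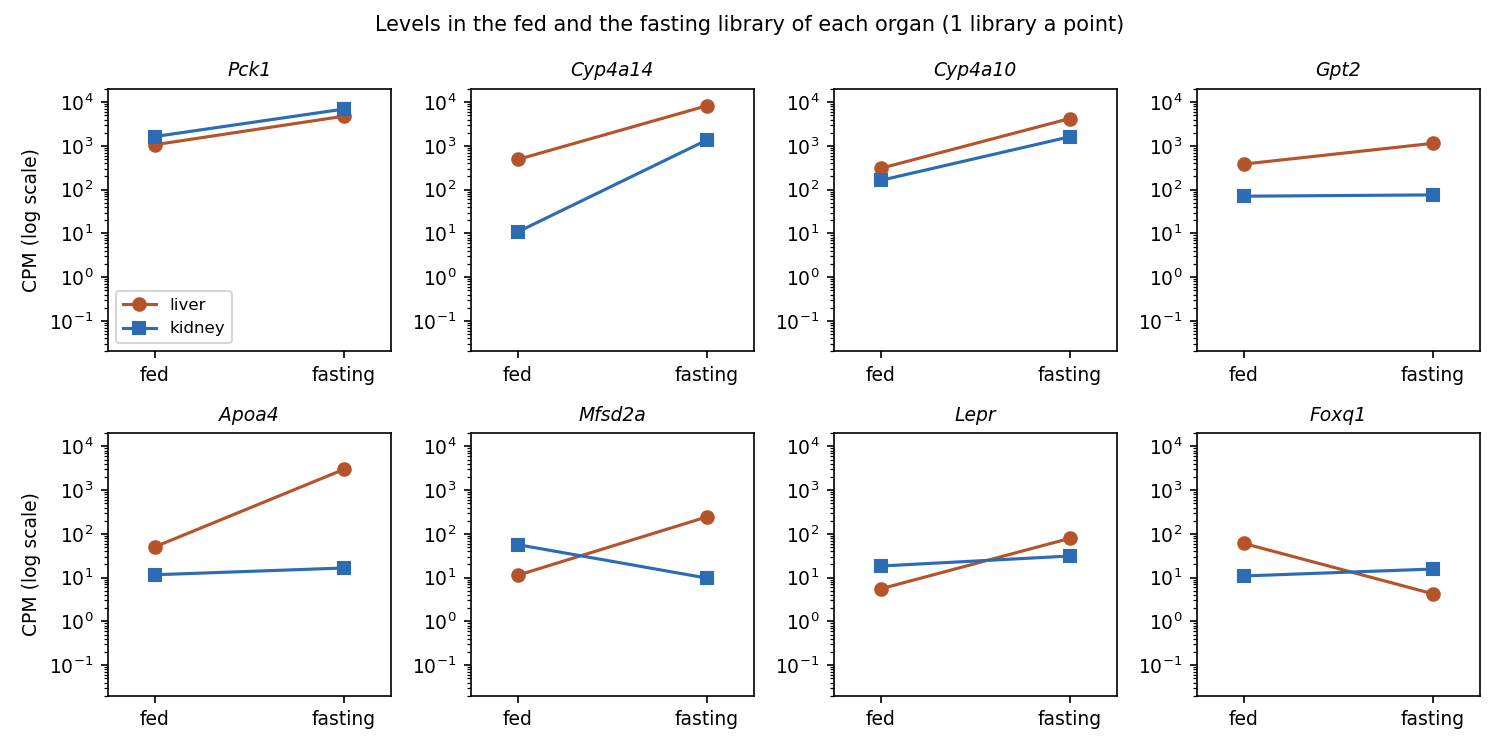
CPM (log axis, 1 library per point) of 8 genes in the fed and the fasting library of liver (circles) and kidney (squares). Pck1 lies 4.47-fold and 4.24-fold higher in the fasting libraries of liver and kidney, Gpt2 and Apoa4 differ mainly in liver, and the lines of Mfsd2a, Lepr and Foxq1 cross.

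A further 3753 genes did not meet the rule because the pairs had opposite directions, and 9 of those tested differed more than 2-fold in both pairs. The gluconeogenesis enzymes Fbp1 and G6pc were among the genes with opposite directions, on small differences. So were Glud1 and Cpt1a, with the levels given above. A difference of 0 in 1 or both pairs left out 4114 more.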

How the data were processed

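Total RNA of pooled mouse organs was sequenced from strand-specific Illumina TruSeq libraries (paired ends). The authors deposited counts per gene from featureCounts (Subread 2.0) in 1 table, with gene lengths. Reads had been trimmed with fastp 0.23.2, their quality had been read with FastQC 0.11.8, and HISAT2 2.2.1.0 had placed them on GRCm38. Neither the strand setting of the counting nor whether it counted reads or pairs is given in the sources used here. All 37 mitochondrial genes had no count in any library. Symbols were matched for 55144 of the 55385 identifiers.

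Counts of the 16 libraries were fitted with edgeR 4.0.16 (glmQLFit, R 4.3.3), with terms for tissue and treatment, TMM factors and filterByExpr, which left 23580 genes and 7 residual degrees of freedom, and the contrast liver minus kidney was tested two-sided with Benjamini-Hochberg adjustment. Each tissue and treatment had 1 library, so the spread comes from how tissues differ between treatments after both terms. TPM was computed from the counts and the deposited lengths. On simulated counts for this comparison with 23580 genes, 47 of 100 genes changed by a log2 fold of 1 and 99 of 100 changed by 2 were recovered, with 3 false calls. Recovery meant an adjusted p under 0.05 with the right sign, and a false call that p alone. The fold minimum and the CPM direction were not applied, and the changed genes were drawn above a minimum level. The rates therefore do not describe the calls reported here, least of all those at low levels. Beside list members, the genes named were the 10 largest folds each way over 100 CPM in the higher organ, of genes called, the 5 with the most CPM in each organ, and the 5 whose difference moved most each way between the pairs or whose pairs had opposite directions. Some members of the lists are counted but not reported here by name. The members, gene lists and tests were chosen with earlier results of these data known. Alternatives were other scalings, DESeq2 1.42.0, other filters, samples, fold minimums and pseudocounts, and Fisher's exact test in each pair.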

Additional observations from a re-analysis of the deposited data

Results flagged for a closer look

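Among the 2822 tested genes in which liver and kidney differed in opposite directions in the fed and the fasting mice, with 1 library on each side, the 5 with the largest difference in the weaker of the pairs are given. The values are differences of liver minus kidney on the log2 scale of CPM + 1. Mfsd2a, which carries lysophosphatidylcholine, had 11.4 and 244 CPM in liver and 56.6 and 9.78 CPM in kidney, and its difference moved by 6.72, from -2.22 to 4.51. Lepr, the leptin receptor, had 5.56 and 78.8 CPM in liver and 18.4 and 31.2 CPM in kidney, and its difference moved by 2.88, from -1.57 to 1.31. Por, the reductase that serves the cytochromes P450, had 128 and 719 CPM in liver and 302 and 289 CPM in kidney, and its difference moved by 2.55, from -1.23 to 1.31. In these 3 the liver was lower in the fed pair and higher in the fasting pair. Foxq1, a forkhead transcription factor, had 60.4 and 4.29 CPM in liver and 10.9 and 15.7 CPM in kidney, and its difference moved by -4.03, from 2.37 to -1.66. Gm4956, a gene without a name of its own, had 25.4 and 3.12 CPM in liver and 7.75 and 14.005 CPM in kidney, and its difference moved by -3.46, from 1.60 to -1.86. In these 2 the order was the reverse. In all 5 the fed and fasting liver libraries were further apart than the kidney libraries. The difference between the pairs was not tested.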

How the results depend on the processing

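With total counts alone, 1756 genes were called higher in liver and 7652 higher in kidney, against 2827 and 4296. The liver count fell to 1700 with a minimum log2 fold of 2. Fisher's exact test in each pair, as a test of libraries and not of conditions, gave 1856 and 8921. Its thresholds were others, an unadjusted p under 0.01 and a log2 fold over 0.5 in both pairs. It used library totals and all genes with a count, so the counts differ by more than the test. Leaving out 1 of the 4 libraries gave 2349 to 2506 liver and 3580 to 3737 kidney genes. The 89 called genes whose difference moved between the pairs became 795 with a pseudocount of 0.01 CPM and 44 with 5 CPM. For the 99 genes with a printed fold, 1738 of 1782 values kept direction and call, 22 lost the call, 8 gained it and 14 turned. Gk was called under 7 of the alternatives and Atp5b with total counts alone. With total counts alone the list medians turned to -0.701 (gluconeogenesis), -0.194 (entry of precursors), -0.070 (regulators) and -0.135 (glycogen), and the log2 folds to -0.568 (Pck1), -0.119 (G6pc), -0.225 (Fbp1), -0.387 (Pcx) and -0.343 (Hnf4a), none of which was called. Leaving out 1 of the 4 libraries at a time gave log2 folds of -0.633 (without the fasting liver) to 0.850 for Pck1, -0.272 (fasting liver) to 0.786 for Pcx, -0.019 (fasting kidney) to 0.856 for Hnf4a, -0.876 (fasting liver) to 4.583 for Mfsd2a, -1.364 (fed liver) to 3.347 for Foxq1, -1.414 (fed liver) to 2.404 for Gm4956, -1.217 (fasting liver) to 2.240 for Lepr and -0.439 (fasting liver) to 1.942 for Por, and Pck1 also turned without the fed kidney (-0.298). The count without genes at trace levels, 2742 and 4241, was an alternative chosen after seeing the data. At the depth of these libraries a level under 0.116 to 0.134 CPM is fewer than 3 counts. Liver and kidney of a regime share a pool, and the treatment term of the fit pairs them. Without that term 2750 liver and 4174 kidney genes were called, and 2673 and 4054 in a fit of the 4 libraries alone.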
